A study of Rattus norvegicus with 9 samples.

Results

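The PPAR-gamma programme and fatty acid uptake genes described here are 10 genes: the transcription factors Pparg, Cebpa, Cebpb and Rxra, the fatty acid binding proteins Fabp4 and Fabp5, the scavenger receptor Cd36, the lipase Lpl with its inhibitor Angptl4, and the acyl-CoA synthetase Acsl1. They were found by gene symbol among 14506 genes measured, with the brightest probe set entry of each gene used, and all 10 were measured. Rat pancreatic stellate cells (PSCs), the fibroblast-like cells of the pancreas that store retinoid in lipid droplets when quiescent and lay down matrix when activated, were cultured on 3 surfaces. The groups were 2 arrays of cells on Matrigel, a laminin-rich basement membrane extract, 3 arrays of cells on collagen I, a fibrillar collagen abundant in scars, and 4 arrays of cells on uncoated plastic. All cells came from male Sprague Dawley rats by density gradient centrifugation in Nycodenz and grew for 72 hours in IMDM with 10% foetal bovine serum in dishes of 10 cm. The labels state neither the rats' age nor whether arrays came from separate animals. Sample titles carry a letter whose meaning is not stated: the Matrigel arrays are A and S, the collagen I arrays A, P and Z, and the plastic arrays A, P, S and Z, and values below are listed in that order.

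PPAR-gamma is a nuclear receptor that binds DNA together with a retinoid X receptor such as RXR-alpha, and fatty acids and their derivatives are among its ligands. In adipocyte differentiation C/EBP-beta acts early and helps to switch on Pparg and Cebpa, whose products then maintain each other and the genes of fatty acid handling. LPL frees fatty acids from circulating triglyceride, CD36 carries them across the membrane, FABP4 and FABP5 bind them inside the cell, ACSL1 activates them to acyl-CoA, and ANGPTL4 restrains LPL. In stellate cells of liver and pancreas PPAR-gamma is known as a mark of the quiescent, lipid-storing state, and its ligands restrain their activation in culture. Macrophages also express several of these genes, among them Pparg, Cd36, Fabp4, Fabp5 and Lpl.

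Values are log2 expression from Affymetrix whole-transcript arrays, and differences are fitted with limma, with p-values adjusted over all 14506 genes. A gene rose or fell where the adjusted p lay under 0.05. A group mean under log2 4.25, the 40th percentile of all genes, was read as dim. Where 1 of 2 means was dim, the difference is given as at least the gap that remained once each array of the dim group under that level had been raised to it. Array medians lay between 4.08 and 4.18. Arrays of the same surface correlated over all genes at 0.991 to 0.996, and arrays of different surfaces at 0.975 to 0.990. In all, 655 genes rose and 849 fell on Matrigel against plastic, 428 rose and 460 fell on collagen I against plastic, and 176 rose and 211 fell on Matrigel against collagen I. With each array re-centred on its median, the Matrigel splits were 512 and 1036 against plastic and 122 and 259 against collagen I.

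On Matrigel, 8 of the 10 genes rose against plastic and 0 fell, where 4.52% of all genes rose, 5.85% fell and 10.4% changed in either direction. The 8 were Pparg, Cebpa, Cebpb, Rxra, Fabp4, Cd36, Acsl1 and Angptl4, and in each of them both Matrigel arrays lay above all 4 plastic arrays, as 13.6% of all genes did. The median difference of the 10 genes was 0.93 on the log2 scale, beside -0.01 over all genes. On collagen I, 2 of the 10 rose against plastic, Cebpb and Angptl4, where 2.95% of all genes rose, 3.17% fell and 6.12% changed in either direction. In both the collagen I arrays lay above all plastic arrays, as for 8.04% of all genes, and in none of the 10 did they lie below, as for 9.20%. The median difference there was 0.11, beside 0.00 over all genes. Between the coatings, 5 of the 10 rose on Matrigel against collagen I (Pparg, Cebpa, Fabp4, Cd36 and Acsl1), where 1.21% of all genes rose, 1.45% fell and 2.67% changed in either direction. In 7 of the 10 both Matrigel arrays lay above all collagen I arrays, as for 13.0% of all genes. The count of 5 was the least stable, as it fell to 1 without the collagen I array of letter P and to 0 when the plastic arrays were left out of the fit. The comparisons share arrays, so their counts are not separate observations. In RNA from whole cultures, fewer cells of a type and less RNA per cell cannot be told apart.

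**Figure D1:**
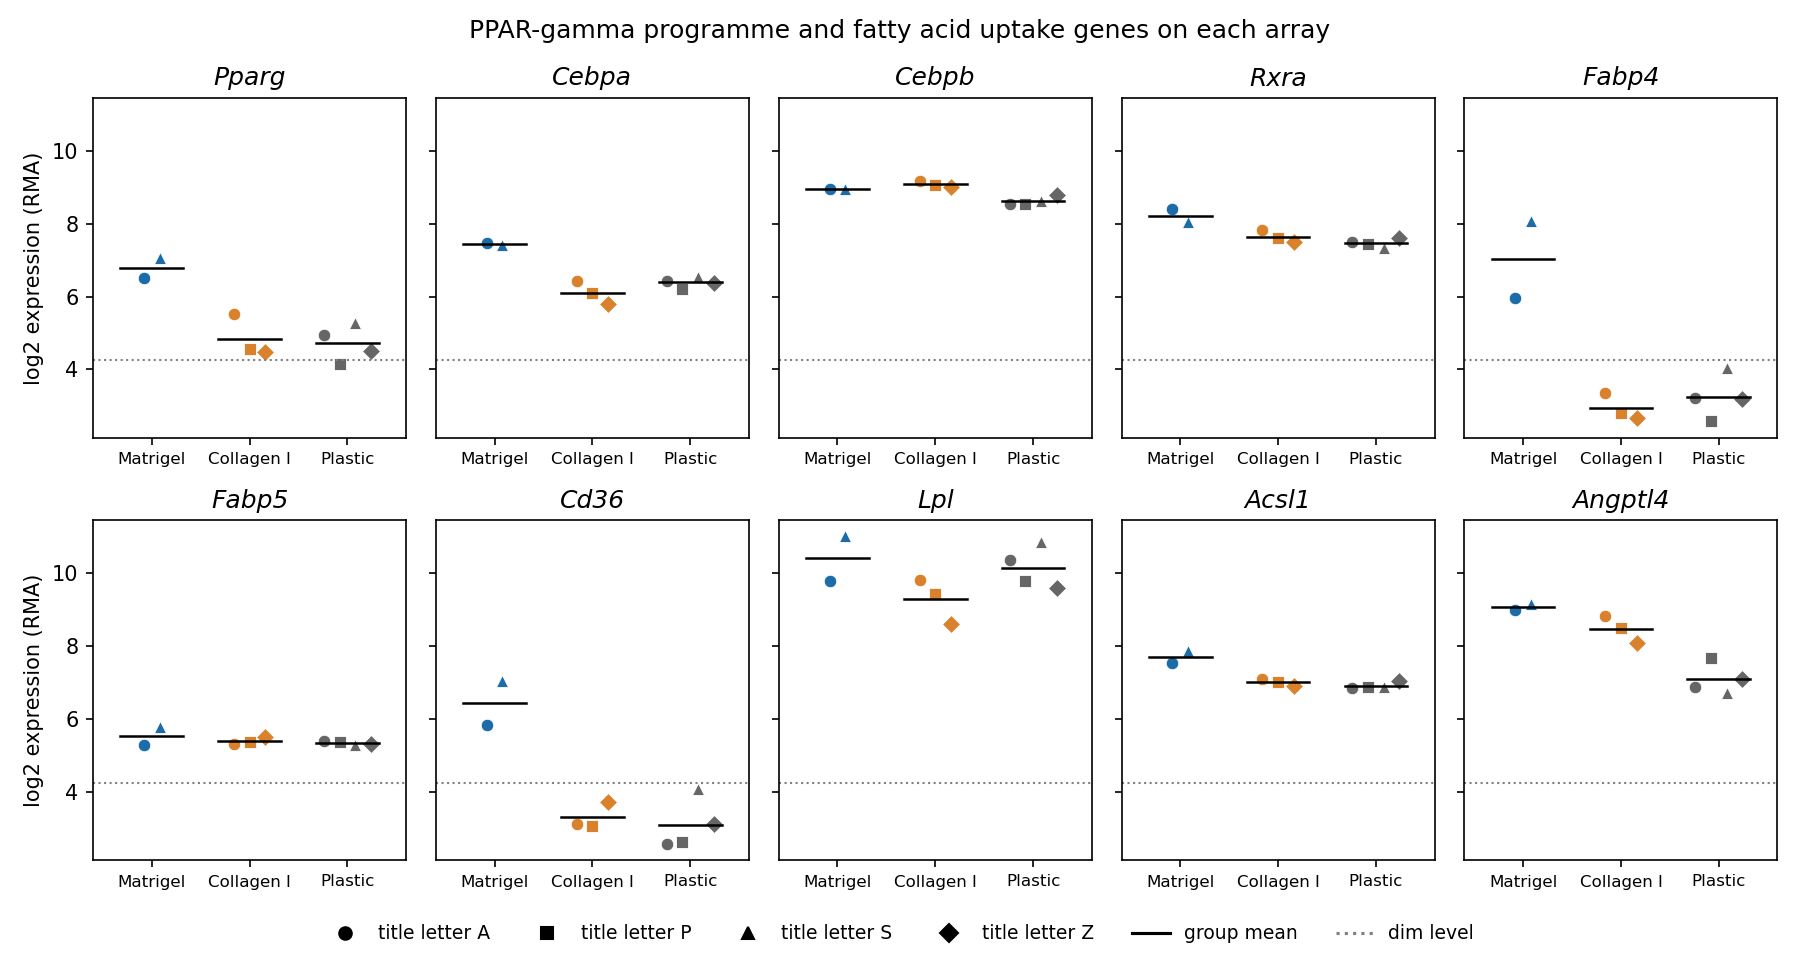
Log2 expression (vertical axis) of the 10 genes on each array, by surface, with marker shapes for the title letters, a bar at each group mean and a dotted line at the dim level of 4.25. The Matrigel arrays stand above all others for Pparg, Cebpa, Rxra, Fabp4, Cd36, Acsl1 and Angptl4, while Fabp5 and Lpl overlap between surfaces.

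Promoter sequences are shown for the genes on which the results turn, Pparg with both of its listed starts, Cebpa, Cd36 and Angptl4. They are RefSeq sequences on the rat build GRCr8, 250 bases before to 50 bases after the listed start of transcription, written 5′ to 3′ in the direction of the gene. The table held 8 promoters for 7 of the 10 genes, and Fabp4, Fabp5 and Lpl had none. Capitals mark matches, on either strand, to the letters TATAAA or to TTGCNNAA, a form of the element that C/EBP proteins bind.
Pparg upstream start, chr4:150096808-150097107, plus strand: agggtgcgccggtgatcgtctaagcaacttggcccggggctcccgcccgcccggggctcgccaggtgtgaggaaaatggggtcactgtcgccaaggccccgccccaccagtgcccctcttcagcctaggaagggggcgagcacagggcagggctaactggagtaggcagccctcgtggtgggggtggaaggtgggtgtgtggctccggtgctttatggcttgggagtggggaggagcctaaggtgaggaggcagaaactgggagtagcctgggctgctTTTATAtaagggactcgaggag
Pparg downstream start, chr4:150154522-150154821, plus strand: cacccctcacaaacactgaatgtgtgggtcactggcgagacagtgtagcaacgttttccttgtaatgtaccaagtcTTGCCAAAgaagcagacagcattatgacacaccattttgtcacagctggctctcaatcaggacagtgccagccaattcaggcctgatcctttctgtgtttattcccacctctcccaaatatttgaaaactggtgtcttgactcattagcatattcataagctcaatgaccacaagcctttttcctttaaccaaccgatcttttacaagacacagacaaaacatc
Cebpa, chr1:96896334-96896633, plus strand: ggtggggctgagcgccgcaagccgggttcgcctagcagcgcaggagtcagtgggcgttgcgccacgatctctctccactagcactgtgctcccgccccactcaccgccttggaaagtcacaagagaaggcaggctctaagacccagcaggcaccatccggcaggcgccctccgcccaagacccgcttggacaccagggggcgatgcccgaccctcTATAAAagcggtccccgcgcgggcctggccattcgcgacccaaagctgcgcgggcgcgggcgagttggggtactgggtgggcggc
Cd36, chr4:18246332-18246631, plus strand: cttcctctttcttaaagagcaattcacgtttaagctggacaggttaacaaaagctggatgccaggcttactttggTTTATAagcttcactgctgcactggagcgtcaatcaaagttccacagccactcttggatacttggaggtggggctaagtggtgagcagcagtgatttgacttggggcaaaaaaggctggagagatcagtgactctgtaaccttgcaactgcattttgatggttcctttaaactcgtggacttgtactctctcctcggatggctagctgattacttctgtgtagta
Angptl4, chr7:15258632-15258931, minus strand: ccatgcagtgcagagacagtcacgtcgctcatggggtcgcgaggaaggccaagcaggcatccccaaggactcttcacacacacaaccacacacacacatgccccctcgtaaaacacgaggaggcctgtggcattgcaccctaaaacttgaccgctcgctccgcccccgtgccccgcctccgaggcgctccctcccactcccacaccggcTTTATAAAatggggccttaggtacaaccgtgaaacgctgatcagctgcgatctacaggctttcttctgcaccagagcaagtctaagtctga
The downstream Pparg start held TTGCNNAA at -174 to -167 on its plus strand, and the Rxra promoter, not printed, held it at -73 to -66 on the minus strand. This motif occurred in 10.6% of all 33469 promoters of the same length. TATAAA occurred in 14.2% of all promoters and in 5 of these 8. It lay at -35 to -30 in Cebpa, at -33 to -28 in Cebpb, and at -41 to -36 and -39 to -34 in Angptl4, where matches on both strands overlap. In Cd36 it lay at -175 to -170 on the minus strand, and at the upstream Pparg start at 29 to 34 past the start on the minus strand. The half-site of nuclear receptors, AGGTCA, held by 16.2% of all promoters, was matched in 0 of the 8 windows. The same was true of the direct repeat of that half-site with any 1 base between, the element of PPAR and RXR heterodimers, which contains AGGTCA and was held by 0.0538% of all promoters. The array measured 1 value for Pparg, which does not separate its starts.

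Pparg (Entrez Gene 25664) was 4.18-fold higher on Matrigel than on plastic. It read 6.50 and 7.07 on the Matrigel arrays, 5.51, 4.55 and 4.47 on the collagen I arrays, and 4.96, 4.15, 5.29 and 4.49 on the plastic arrays. Both Matrigel arrays lay more than 0.9 above every other array, and the collagen I and plastic arrays were intermixed. The difference of Matrigel minus plastic was 2.06 ± 0.38 (SE) on the log2 scale (adjusted p = 0.0112), and without the Matrigel array of letter S the adjusted p was 0.0777. Arrays of the same letter differed by 1.54 for A and 1.78 for S. For collagen I minus plastic the difference was 0.12 ± 0.33 (adjusted p = 0.889). Pparg rose on Matrigel against collagen I by 1.94 ± 0.40 (adjusted p = 0.0441), a call lost in 11 of 19 alternative settings, with adjusted p between 0.0312 and 0.180.

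Cebpa (Entrez Gene 24252), the C/EBP factor of the late adipogenic step, rose with it. The Matrigel arrays read 7.48 and 7.42, the collagen I arrays 6.43, 6.09 and 5.79, and the plastic arrays 6.43, 6.21, 6.54 and 6.37. The Matrigel pair lay close together and above all other arrays, and 2 of the 3 collagen I arrays lay below every plastic array. The rise against plastic was 1.06 ± 0.16, or 2.09-fold (adjusted p = 0.00497), and it stayed under 0.05 in all 19 alternatives. Against collagen I the rise was 1.35 ± 0.17 (adjusted p = 0.0118), lost with the title letter as a fixed block and with only the 2 compared groups (adjusted p up to 0.128). Collagen I minus plastic gave -0.28 ± 0.14 (adjusted p = 0.332).

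Cebpb (Entrez Gene 24253), the early C/EBP factor, had another order of surfaces, with collagen I at the top. On Matrigel it read 8.95 on both arrays, on collagen I 9.17, 9.06 and 9.01, and on plastic 8.53, 8.54, 8.61 and 8.78. Every coated array lay above every plastic array, and every collagen I array above both Matrigel arrays. The rise on collagen I was 0.47 ± 0.08, or 1.38-fold (adjusted p = 0.00962), and held in all 19 alternatives. On Matrigel the rise was 0.33 ± 0.09, or 1.26-fold (adjusted p = 0.0477), and 13 of the 19 alternatives lost the call, with adjusted p up to 0.161. Matrigel minus collagen I was -0.13 ± 0.09 (adjusted p = 0.534), although the arrays did not overlap, as 16.4% of all genes did not in that direction.

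Rxra (Entrez Gene 25271), the DNA-binding partner of PPAR-gamma, read 8.39 and 8.05 on Matrigel, 7.83, 7.60 and 7.50 on collagen I and 7.50, 7.45, 7.32 and 7.61 on plastic. Matrigel arrays were highest, and collagen I arrays overlapped with plastic. The rise on Matrigel against plastic was 0.75 ± 0.13, or 1.68-fold (adjusted p = 0.00894), and it was lost without the Matrigel array of letter A (adjusted p = 0.0721). Neither collagen I against plastic (0.17 ± 0.11, adjusted p = 0.497) nor Matrigel against collagen I (0.58 ± 0.14, adjusted p = 0.0685) passed. The last one did pass with the title letter as a random block, with renewed quantile normalization and with dim genes filtered out (adjusted p down to 0.0473).

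Fabp4 and Cd36 were at a dim level except on Matrigel. Fabp4 (Entrez Gene 79451), the fatty acid carrier of adipocytes and macrophages, read 5.97 and 8.08 on the Matrigel arrays, 3.34, 2.81 and 2.67 on collagen I, and 3.21, 2.58, 4.03 and 3.19 on plastic. Both Matrigel arrays were above the dim level, S well above A, and all 7 other arrays were under it. Fabp4 was at least 2.78 higher on the log2 scale, or at least 6.87-fold, on Matrigel than on either other surface (adjusted p = 0.00451 against plastic and 0.0148 against collagen I). The call against plastic held with any 1 array left out, with an adjusted p of at most 0.0233 over all alternatives. That against collagen I was lost without the collagen I array of letter P and with only the 2 compared groups.

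Cd36 (Entrez Gene 29184), the membrane receptor for long-chain fatty acids and oxidised lipoproteins, was also highest on Matrigel. Its values were 5.84 and 7.02 on Matrigel, 3.11, 3.05 and 3.72 on collagen I, and 2.55, 2.63, 4.06 and 3.11 on plastic. The Matrigel arrays again stood alone above the dim level. Cd36 was at least 2.19 higher, or at least 4.55-fold, on Matrigel than on plastic (adjusted p = 0.00342) and than on collagen I (adjusted p = 0.0183). The call against plastic held in all 18 alternatives that tested it, and that against collagen I in 14 of 18, being lost without the Matrigel array S, the collagen I array A or P, or the plastic arrays together. Collagen I and plastic were both dim (adjusted p = 0.846). With the title letter as a block that comparison passed (adjusted p = 0.0245), and each collagen I array lay above the plastic array of its letter. A second entry of Cd36 was dim on every array, at 3.68 and 3.64 on Matrigel, 2.24, 2.51 and 3.08 on collagen I and 2.51, 2.49, 2.51 and 2.33 on plastic. It was also highest on Matrigel, with an adjusted p of 0.0103 against plastic when every entry of the array was tested. Against collagen I that entry did not pass (adjusted p = 0.0511).

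Fabp5 (Entrez Gene 140868), the fatty acid carrier of skin and macrophages, passed in no comparison. It read 5.28 and 5.79 on Matrigel, 5.30, 5.37 and 5.49 on collagen I, and 5.39, 5.37, 5.28 and 5.32 on plastic. Only the Matrigel array of letter S stood apart, and the other Matrigel array was the lowest of all 9. The difference of Matrigel minus plastic was 0.19 ± 0.13 (adjusted p = 0.430), and it passed when the Matrigel array of letter A was left out (adjusted p = 0.0443). The 2 entries of Fabp5 held identical values.

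Acsl1 (Entrez Gene 25288), which traps fatty acids in the cell as acyl-CoA, read 7.54 and 7.86 on Matrigel, 7.08, 7.0 and 6.91 on collagen I, and 6.84, 6.88, 6.87 and 7.03 on plastic. Matrigel arrays were highest, and the collagen I and plastic arrays overlapped within a narrow range. The rise on Matrigel was 0.79 ± 0.11 against plastic, or 1.73-fold (adjusted p = 0.00285), held in all 19 alternatives, and 0.70 ± 0.11 against collagen I (adjusted p = 0.0194), lost in 5 of them. Collagen I minus plastic was 0.09 ± 0.09 (adjusted p = 0.677).

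Lpl and Angptl4, the lipase and its inhibitor, parted ways. Angptl4 (Entrez Gene 362850) read 8.99 and 9.15 on Matrigel, 8.81, 8.49 and 8.08 on collagen I, and 6.88, 7.68, 6.70 and 7.09 on plastic. The surfaces were fully separated, in the order Matrigel, collagen I and plastic. The rise against plastic was 1.98 ± 0.27, or 3.96-fold, on Matrigel (adjusted p = 0.00342), and held in all 19 alternatives. On collagen I it was 1.37 ± 0.24, or 2.59-fold (adjusted p = 0.0120), and leaving out the collagen I array of letter P gave an adjusted p of 0.0521. The same-letter differences on collagen I were 1.93 for A, 0.81 for P and 0.99 for Z. Matrigel and collagen I differed by 0.61 ± 0.29 (adjusted p = 0.327).

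Lpl (Entrez Gene 24539) passed in no comparison. It read 9.79 and 11.02 on Matrigel, 9.80, 9.42 and 8.61 on collagen I, and 10.34, 9.78, 10.85 and 9.58 on plastic. Its spread within each surface was over 1 on the log2 scale, and all 3 surfaces overlapped. Matrigel minus plastic was 0.27 ± 0.47 (adjusted p = 0.807), and the sign turned with the title letter as a block (-0.24) or without the Matrigel array of letter S (-0.35). Collagen I minus plastic was -0.86 ± 0.41 (adjusted p = 0.310), and each collagen I array lay below the plastic array of its letter. Matrigel minus collagen I was 1.13 ± 0.49 (adjusted p = 0.294).

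**Figure D2:**
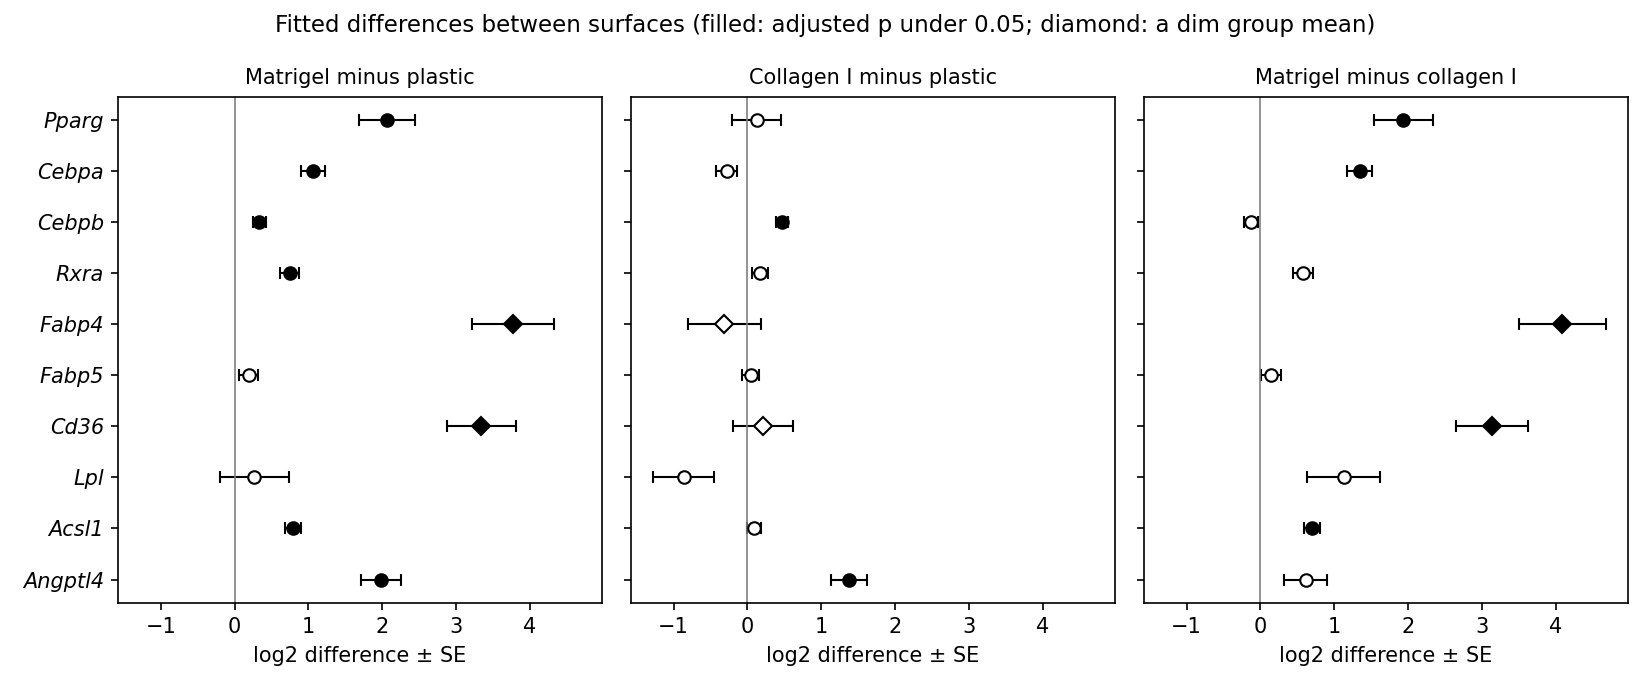
Fitted log2 difference (horizontal axis, point with its standard error) of each of the 10 genes in the 3 comparisons, filled where the adjusted p was under 0.05 and drawn as a diamond where a group mean was dim, in which case the text gives a bound instead. Filled points number 8 for Matrigel minus plastic, 2 for collagen I minus plastic and 5 for Matrigel minus collagen I.

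Among the other receptors of the family, 1 of 12 tested genes rose on Matrigel against plastic and 0 fell, beside 4.52% and 5.85% of all genes. It was Ppard, the broadly expressed PPAR, which read 7.64 and 7.62 on Matrigel, 7.52, 7.53 and 7.50 on collagen I and 7.36, 7.38, 7.21 and 7.30 on plastic. Its rise of 0.32 ± 0.07 (adjusted p = 0.0208) was lost without either Matrigel array, with re-centred arrays and with only the 2 compared groups. Ppara, the PPAR of liver, was dim on all 3 surfaces. No receptor passed in the other comparisons, where 3 for collagen I against plastic and 1 for Matrigel against collagen I had an unadjusted limma p under 0.05. The receptors nearest the threshold on collagen I were Thrb, a thyroid hormone receptor, at least 0.34 lower than on plastic (adjusted p = 0.0596), and Ppard itself (0.20 ± 0.06, adjusted p = 0.0989).

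Of 25 other adipogenic factors and restraints, 4 rose and 2 fell on Matrigel against plastic, beside 4.52% and 5.85% of all genes. The median difference was 0.15. Klf4, a Kruppel-like factor that acts early in adipogenesis in mouse cells, fell by 2.40 ± 0.18 (adjusted p = 0.000319), with 6.51 and 6.26 on Matrigel, 8.03, 7.61 and 7.49 on collagen I, and 8.87, 8.80, 9.01 and 8.47 on plastic. The 3 surfaces did not overlap, and Klf4 also fell on collagen I against plastic by 1.08 ± 0.16 (adjusted p = 0.00582). Zfp423, a zinc finger protein that commits cells to the adipocyte line, rose by 1.28 ± 0.18 on Matrigel (adjusted p = 0.00350), and Zfp521, which opposes it, rose as well by 0.92 ± 0.15 (adjusted p = 0.00685). The remaining risers were Hes1 (1.24, adjusted p = 0.0130) and Dlk1 (0.74, adjusted p = 0.0419). Hes1 was lost with the title letter as a fixed block, and its rise was as low as 0.91 with 1 array left out. Dlk1 was lost without any 1 plastic array or the collagen I array P, with re-centred arrays and with every entry tested. Klf2, which represses Pparg, fell by 1.26 ± 0.23 (adjusted p = 0.0108). The calls of Klf4 and Zfp423 held with any 1 array left out. That of Zfp521 was lost without the Matrigel array A and that of Klf2 without either Matrigel array, and the count of 4 rising genes fell to 2 without the Matrigel array A.

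On collagen I, 5 of these 25 factors rose and 2 fell against plastic, beside 2.95% and 3.17% of all genes, with a median of -0.08. As on Matrigel, Zfp521 rose by 0.71 (adjusted p = 0.0156) and Zfp423 by 0.66 (adjusted p = 0.0466). Nr3c1 rose by 0.43 (adjusted p = 0.0456). The Zfp521 call was lost without the collagen I array P or Z. Those of Zfp423 and Nr3c1 were lost without any 1 collagen I array or the plastic array A, P or S, and Nr3c1 also without Z. The calls of Zfp423 and Nr3c1 were also lost with every entry tested and with only the 2 compared groups. Id2, an inhibitor of helix-loop-helix factors, rose by 1.26 ± 0.12 (adjusted p = 0.000598), and Hes1, a target of Notch signalling, by 1.83 ± 0.21 (adjusted p = 0.00156). Cebpd, the partner of Cebpb in the early adipogenic step, fell by 0.86 ± 0.15 (adjusted p = 0.0102). The calls of Id2, Hes1 and Cebpd held with any 1 array left out. The count of 5 was 2 to 4 with 1 array left out, lowest without the collagen I array P or Z. On Matrigel against collagen I, 2 rose and 3 fell, beside 1.21% and 1.45% of all genes. The risers were Stat5a (0.84 ± 0.15, adjusted p = 0.0288) and Dlk1. The fallers were Klf4 (-1.32 ± 0.19, adjusted p = 0.0153), Id2 (-0.81 ± 0.14, adjusted p = 0.0251) and Klf2 (-1.34 ± 0.24, adjusted p = 0.0294). Those counts ran from 0 to 1 and from 0 to 3 with 1 array left out.

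Of 12 PPAR coregulators, 3 rose and 0 fell on Matrigel against plastic, beside 4.52% and 5.85% of all genes, with a median of 0.15. They were the acetyltransferases Ep300 (0.60 ± 0.07, adjusted p = 0.00154) and Crebbp (0.49 ± 0.09, adjusted p = 0.00923, lost without the Matrigel array A) and the coactivator Ppargc1b (0.53 ± 0.09, adjusted p = 0.00894). Ep300 read 7.45 and 7.43 on Matrigel, 6.99, 6.93 and 7.05 on collagen I, and 6.85, 6.87, 6.76 and 6.87 on plastic. On collagen I against plastic 0 rose and 1 fell, beside 2.95% and 3.17% of all genes. It was Cited2 (-0.97 ± 0.18, adjusted p = 0.0141), which was lost without the collagen I array A. On Matrigel against collagen I, where 1.21% of all genes rose, 2 did, Ep300 by 0.45 ± 0.07 (adjusted p = 0.0203) and Ppargc1b by at least 0.53 (adjusted p = 0.0138). There the Ep300 call was lost in 7 of the 19 alternatives, and that of Ppargc1b with the title letter as a fixed block and with only the 2 compared groups.

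No other fatty acid transporter, carrier or activating enzyme passed the test as higher on Matrigel against plastic, as Cd36, Fabp4 and Acsl1 had. Of 27 tested, 14 with a dim overall mean, 0 rose and 3 fell on Matrigel against plastic, and 0 rose and 3 fell on collagen I against plastic, the same 3 genes: Cav1, Slc27a3 and Slc27a4. Of all genes, 5.85% fell on Matrigel and 3.17% on collagen I in those comparisons. The medians of the list were -0.01 and -0.03, and with the title letter as a block 1 rose on each coating. Cav1, the coat protein of caveolae, read 8.89 and 8.74 on Matrigel, 9.31, 8.99 and 8.97 on collagen I, and 10.17, 10.04, 9.96 and 10.07 on plastic. It fell by 1.24 ± 0.11 on Matrigel (adjusted p = 0.000622) and by 0.97 ± 0.10 on collagen I (adjusted p = 0.000931), with any 1 array left out as well. Slc27a3, a fatty acid transport protein of the family that also activates very long chains, fell by 0.79 ± 0.19 on Matrigel (adjusted p = 0.0299), a call lost in 5 of the 9 fits without 1 array, and by 1.06 ± 0.16 on collagen I (adjusted p = 0.00652). Slc27a4, its relative, fell by 0.64 ± 0.13 on Matrigel (adjusted p = 0.0175), lost without the Matrigel array S, and by 0.49 ± 0.12 on collagen I (adjusted p = 0.0423), lost in 6 of those 9 fits. None passed for Matrigel against collagen I, where 2 had an unadjusted limma p under 0.05.

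Around Lpl, 18 partners, lipases and lipoprotein receptors were tested. Furin, a protease that cleaves LPL and ANGPTL4, rose on both coatings, reading 10.20 and 9.82 on Matrigel, 9.79, 9.55 and 9.96 on collagen I, and 9.08, 9.11, 9.07 and 9.17 on plastic. The rise was 0.90 ± 0.13 on Matrigel (adjusted p = 0.00409) and 0.66 ± 0.12 on collagen I (adjusted p = 0.0118), and each held with any 1 array left out. Lrp1, an endocytic receptor for lipoprotein remnants, rose by 0.88 ± 0.17 on Matrigel (adjusted p = 0.0125), a call lost without the Matrigel array S. Vldlr, a receptor for triglyceride-rich lipoproteins, fell there by 0.93 ± 0.15 (adjusted p = 0.00655), lost without the Matrigel array A. Pcsk6, another protease that cleaves lipases, fell by 0.95 ± 0.12 on collagen I (adjusted p = 0.00294). That made 2 up and 1 down on Matrigel and 1 up and 1 down on collagen I against plastic. Of all genes, 4.52% rose and 5.85% fell on Matrigel, and 2.95% and 3.17% on collagen I. For Matrigel against collagen I 0 passed, where 4 had an unadjusted limma p under 0.05. Gpihbp1, which anchors LPL on capillary endothelium, was dim on all 3 surfaces.

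Among 41 other known PPAR target genes, 13 rose and 2 fell on Matrigel against plastic, beside 4.52% and 5.85% of all genes. The median was 0.25 beside -0.01 over all genes, and 9 to 12 rose with 1 collagen I or plastic array left out. Plin2, a coat protein of lipid droplets, read 9.78 and 9.72 on Matrigel, 8.99, 8.58 and 8.87 on collagen I, and 7.98, 7.72, 7.97 and 7.80 on plastic. The 3 surfaces were fully separated, and Plin2 rose by 1.88 ± 0.12, or 3.68-fold, on Matrigel (adjusted p = 0.000185) and by 0.95 ± 0.11 on collagen I (adjusted p = 0.00178). Cpt1a, which admits fatty acids to the mitochondrion, had the same order, with 9.22 and 8.53 on Matrigel, 8.31, 8.30 and 8.12 on collagen I, and 6.84, 7.22, 6.62 and 7.33 on plastic. It rose by 1.87 ± 0.23 on Matrigel (adjusted p = 0.00223) and by 1.24 ± 0.21 on collagen I (adjusted p = 0.00927). Gpd1, which supplies glycerol phosphate for triglyceride, read 6.59 and 7.52 on Matrigel, 4.18, 4.19 and 3.72 on collagen I, and 4.05, 3.88, 4.54 and 3.73 on plastic. Like Fabp4 and Cd36, it had dim means except on Matrigel, where it was at least 2.74 higher than on plastic (adjusted p = 0.000831) and at least 2.81 higher than on collagen I (adjusted p = 0.00635). Pdk4, which turns glucose oxidation down, was at least 0.70 higher on Matrigel than on plastic (adjusted p = 0.000627) and than on collagen I (adjusted p = 0.0138). All of these calls held with any 1 array left out. Those of Gpd1 and Pdk4 against collagen I were lost with only the 2 compared groups, and that of Pdk4 also with the title letter as a fixed block.

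The remaining risers of that list on Matrigel were Plin1, Cidec, Cpt2, Acadl, Aqp7, Cat, Pex11a, Pnpla2 and Gk, and Cidec and Aqp7 stayed dim on both surfaces. Only Gk, glycerol kinase, kept its call in all 19 alternatives among these 9. Aqp7 lost it in 8 of the 9 fits without 1 array, Cpt2 and Pnpla2 in 6 each, Cidec in 3, Plin1 and Cat in 2 each, and Acadl and Pex11a in 1 each. Vnn1, a pantetheinase and PPAR target of liver, went the other way, with 4.33 and 4.90 on Matrigel, 5.68, 5.36 and 4.75 on collagen I, and 7.24, 7.46, 7.31 and 7.03 on plastic. It fell by 2.65 ± 0.26 on Matrigel (adjusted p = 0.000831) and by 2.0 ± 0.23 on collagen I (adjusted p = 0.00151), with any 1 array left out as well. Acadm, a medium-chain acyl-CoA dehydrogenase, fell on Matrigel by 0.52 ± 0.09 (adjusted p = 0.0103), lost without the Matrigel array A. On collagen I against plastic, 3 of the 41 rose (Plin2, Cpt1a and Acadl, the last lost in 7 of the 9 fits without 1 array) and 1 fell. Of all genes 2.95% rose and 3.17% fell there, and the median of the list was -0.02. On Matrigel against collagen I, 4 rose (Gpd1, Pdk4, Plin2 and Pnpla2) and 0 fell, beside 1.21% and 1.45% of all genes. The median was 0.33 beside -0.02 over all genes. There Plin2 rose by 0.93 ± 0.13 (adjusted p = 0.0145), lost without the Matrigel array A, and Pnpla2, the first lipase of triglyceride breakdown, by 0.74 ± 0.13 (adjusted p = 0.0294), lost in 6 of the 9 fits without 1 array.

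**Figure D3:**
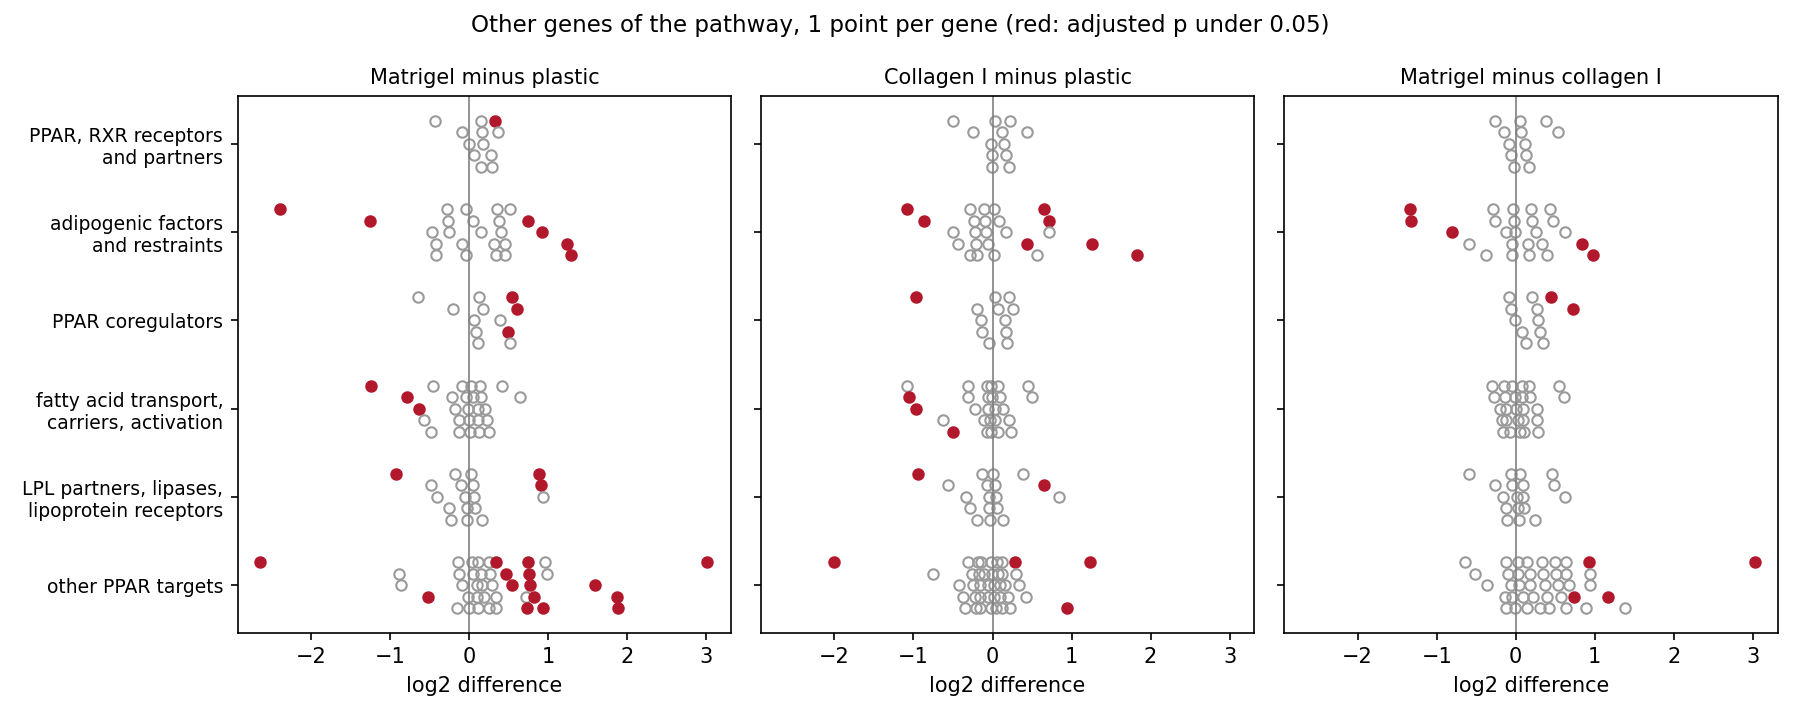
Fitted log2 difference (horizontal axis) of every tested gene in 6 lists of the pathway (rows), 1 point per gene, in the 3 comparisons, with red points for an adjusted p under 0.05 and dim genes drawn at their fitted values. Among other PPAR targets 13 genes rose and 2 fell on Matrigel against plastic, while the fatty acid transport list held 3 falling and 0 rising genes on each coating.

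The 5 genes outside the list whose values over the 9 arrays were most like those of Pparg were Atrn (r = 0.980), Chpt1 (r = 0.973), Slc8b1, Kcnn3 (r = 0.963 each) and Mgst1 (r = 0.961). Mgst1 averaged 10.26 on Matrigel, 8.22 on collagen I and 7.92 on plastic. For Fabp4 they were Rbp4 (r = 0.985), Gpd1 (r = 0.981), Nos1ap, Prkar2b (r = 0.979 each) and Sidt2 (r = 0.978). Rbp4, the plasma carrier of retinol, averaged 7.02 on Matrigel, 4.99 on collagen I and 5.37 on plastic. For Angptl4 they were Tbl1xr1 (r = 0.959), Ppard (r = 0.957), Plekha3 (r = 0.955), Hmgn3 (r = 0.954) and Cpt1a (r = 0.944). Hmgn3 averaged 6.61 on Matrigel, 6.10 on collagen I and 5.59 on plastic. These correlations describe 9 arrays that share 3 surfaces and were picked as the highest among all genes.

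Markers of other cells were read on the same arrays, because several of the 10 genes are known from macrophages and adipocytes. The mean of 28 macrophage and leukocyte markers was 7.11 and 7.48 on Matrigel, 5.94, 5.98 and 6.80 on collagen I, and 6.70, 5.90, 7.06 and 6.04 on plastic. Their defining markers were measured on every surface: Cd68 averaged 9.70 on Matrigel, 7.85 on collagen I and 8.66 on plastic, Adgre1 8.27, 6.52 and 7.97, Csf1r 8.66, 7.10 and 7.51, Itgam 7.31, 5.84 and 5.33, and Ptprc 6.50, 5.44 and 5.40. Of the 28, 3 rose on Matrigel against plastic (Itgam, Laptm5 and Coro1a) and 0 fell, with a median difference of 1.01, and that count was 0 without either Matrigel array and 8 without the plastic array S. On collagen I against plastic 1 rose, Coro1a, a call lost in 8 of the 9 fits without 1 array, and on Matrigel against collagen I 0 passed, with 14 at an unadjusted limma p under 0.05 and a median of 1.14. In the reported fits 4.52% of all genes rose on Matrigel against plastic and 2.95% on collagen I. Among the plastic arrays the list mean was highest on S and next on A, the letters of the Matrigel arrays. With the title letter as a fixed block, 1 of the 28 rose on Matrigel against plastic and 0 fell. The Matrigel and plastic arrays of letter S had the highest list mean of their surfaces, and also the highest Pparg, Fabp4, Cd36 and Lpl. Rxra was lowest on S on both surfaces, and Angptl4 and Fabp5 were lowest on S among the plastic arrays. Among the collagen I arrays Z had the highest list mean and the highest Cd36, but the lowest Pparg, Fabp4 and Lpl. The part of these cells in the values of the 10 genes was not tested.

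Among adipocyte markers the hormone genes Adipoq and Lep were dim, while 5 of 14 markers rose on Matrigel against plastic, as did 4.52% of all genes. Of the 14 markers, 9 had a dim overall mean. The mean of the 14 lay between 4.11 and 4.32 on Matrigel, 3.58 and 3.72 on collagen I, and 3.57 and 3.76 on plastic. Adipoq, Cidec and Lep were dim on all 3 surfaces, Adipoq at 2.75 on Matrigel, 2.61 on collagen I and 2.59 on plastic, Retn averaged 4.49, 4.27 and 4.30, and Plin1 passed the dim level on Matrigel and collagen I (4.90 and 4.33, against 4.17 on plastic). The 5 that rose on Matrigel against plastic were Gpd1, Plin1, Cidec, Aqp7 and Lipe, of which the first 4 are also among the PPAR targets above, and Lipe, the hormone-sensitive lipase, averaged 5.74 on Matrigel and 5.02 on plastic (adjusted p = 0.0436). That count was 2 without the Matrigel array S or the plastic array A, P or Z. On collagen I against plastic 0 passed, with 0 at an unadjusted limma p under 0.05. On Matrigel against collagen I 2 rose, Gpd1 and Cfd, beside 1.21% of all genes. Some islet and acinar markers rose on Matrigel too. The islet mean of 15 markers ran from 5.96 to 7.05 on Matrigel, 4.97 to 5.55 on collagen I and 4.78 to 5.50 on plastic, with Ins1 averaging 11.76, 10.73 and 9.80, Ins2 10.61, 9.10 and 8.47, Gcg 10.79, 8.83 and 8.74, Ppy 8.50, 6.20 and 6.51, and Sst 4.85, 3.93 and 4.14. Of the 15 islet markers, 7 had a dim overall mean, and 9 of the 15 rose on Matrigel against plastic, beside 4.52% of all genes. That count was 4 to 8 with 1 collagen I or plastic array left out, lowest without the plastic array P, S or Z. Against collagen I 2 rose, beside 1.21% of all genes, and 0 to 1 with 1 collagen I or plastic array left out. The acinar mean of 22 markers ran from 3.72 to 4.43, 3.30 to 3.56 and 3.30 to 3.43 on the same surfaces, with Ctrb1 at 9.27, 5.75 and 5.48, Prss2 at 4.53, 4.43 and 4.41, Cela1 at 4.63, 4.64 and 4.57, Cela2a at 4.39, 4.0 and 3.85, and Prss1 dim throughout. Of the 22 acinar markers, 18 had a dim overall mean. On Matrigel 3 of the 22 rose against plastic and 2 against collagen I, beside the same shares of all genes. With 1 collagen I or plastic array left out, those counts were 2 to 3 and 0 to 1. On collagen I against plastic 0 islet and 0 acinar markers passed, with 0 and 1 at an unadjusted limma p under 0.05. The islet and acinar counts given here do not cover leaving out a Matrigel array. For both lists the higher Matrigel array was A. The islet mean was 7.05 on A and 5.96 on S, and the acinar mean 4.43 and 3.72. Rxra and Cebpa were also higher on A, whereas the other 8 genes were higher on S. Among those, Cebpb was almost equal on the Matrigel arrays (8.947 on A and 8.955 on S). The part of these cells was not tested either.

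Among 16 endothelial markers, Pecam1, Cdh5 and Kdr were dim on all 3 surfaces, Tek averaged 6.80 on Matrigel, 7.06 on collagen I and 6.84 on plastic, and Tie1 5.23, 4.27 and 4.18, with a list mean of 3.90 to 4.01 on Matrigel, 3.83 to 3.89 on collagen I and 3.84 to 3.94 on plastic. Of the 16 endothelial markers, 12 had a dim overall mean. On Matrigel against plastic 1 rose and 1 fell, beside 4.52% and 5.85% of all genes. Against collagen I 1 rose on Matrigel, beside 1.21% of all genes. On collagen I against plastic 0 endothelial markers passed, with 0 at an unadjusted limma p under 0.05. The mean of 12 duct and epithelial markers ran from 3.30 to 3.88, 3.24 to 3.35 and 3.15 to 3.33 on the same surfaces, with Krt19 and Epcam dim throughout, Krt8 at 5.49, 4.92 and 5.03, Krt18 at 4.66, 3.75 and 3.45, and Krt7 at 3.85, 4.26 and 4.44. Of these 12, 10 had a dim overall mean. In no comparison did any of the 12 pass. At an unadjusted limma p under 0.05 there were 4 for Matrigel against plastic, 0 for collagen I against plastic and 6 for Matrigel against collagen I. Without the Matrigel array S, 5 of them rose against plastic and 3 against collagen I. The mean of 17 stellate cell and fibroblast markers was 9.11 to 9.12 on Matrigel, 9.59 to 9.73 on collagen I and 9.49 to 9.64 on plastic. Vim averaged 12.19 on Matrigel, 12.55 on collagen I and 12.55 on plastic, Col1a1 12.5, 12.76 and 12.73, Acta2, the actin of activated cells, 9.19, 10.77 and 10.42, and Des 4.84, 6.0 and 6.77, while Gfap was dim throughout. Acta2 passed in no comparison. Des fell in all 3 comparisons, Thy1 on Matrigel against both other surfaces, and Col3a1 and Lum on Matrigel against plastic. Fn1 rose by 0.35 on Matrigel against plastic (adjusted p = 0.00899), and Postn by 2.29 on collagen I against plastic (adjusted p = 0.00962). Of these 17, 1 rose and 4 fell on Matrigel against plastic (2 fell without the Matrigel array A), 1 rose and 1 fell on collagen I against plastic, and 0 rose and 2 fell on Matrigel against collagen I.

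**Figure D4:**
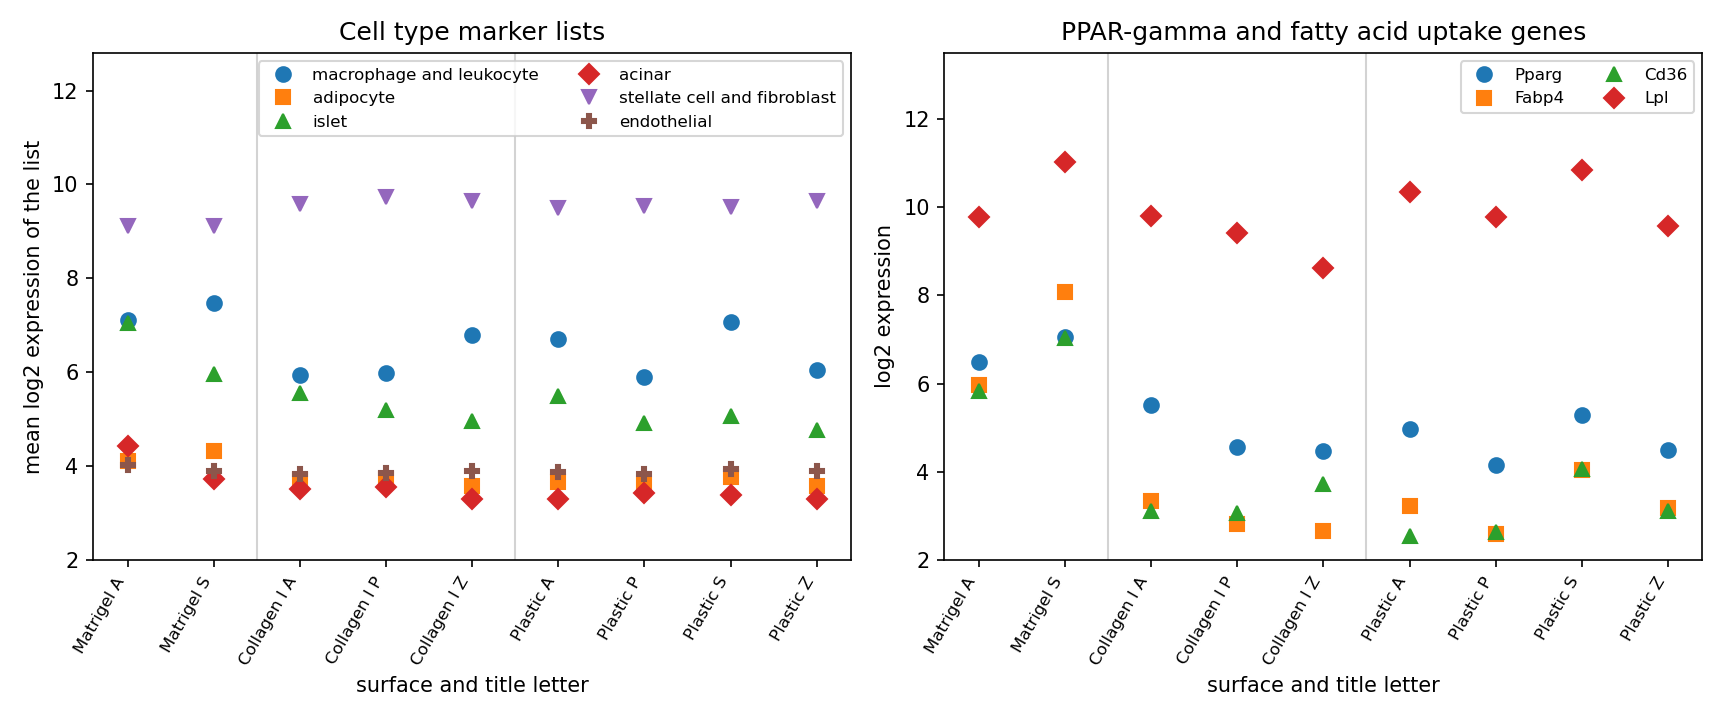
Mean log2 expression of 6 cell type marker lists (left, vertical axis) and log2 expression of Pparg, Fabp4, Cd36 and Lpl (right, vertical axis) on each of the 9 arrays, ordered by surface and title letter. The Matrigel array S is the highest of all in the macrophage list (7.48) and in Fabp4 (8.08), while the Matrigel array A is the highest in the islet list (7.05).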

How the data were processed

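Rat PSCs on 3 surfaces were measured on 9 arrays. The deposited values are log2 expression values that the authors made with RMA, per the submitters' processing notes; the software is not given in the sources used here, nor is a build. Of 29215 probe set entries, 15310 had 1 gene symbol, 323 several and 13582 none. The entry with the highest mean was kept per gene, which left 804 out, and 15279 entries matched RefSeq's gene table with 0 symbols changed. Limma 3.58.1 in R 4.3.3 was fitted over all 9 arrays with 1 mean per surface (6 residual degrees of freedom), and p-values were adjusted by Benjamini-Hochberg over 14506 genes, two-sided, within each comparison. The model was tested on simulated data. For a bound, a dim array's value was raised to the dim level where it lay under it.

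The members, lists and rules were chosen with earlier results of these data known. The text names all 10 genes, up to 4 genes with the smallest p per list and comparison, and the 5 most alike genes outside the list. It also names the first 5 measured markers of each cell type and some, but not all, of the other called genes. Replicates may be technical, so the p-values reflect only how these samples spread, and the number of arrays limits the precision. The alternatives were re-centring, renewed quantile normalization, a filter on dim genes, every entry tested, the mean of a gene's entries, only the 2 compared groups, the title letter as a block (fixed or random), array weights, trend with robust moderation, and leaving out each array.

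As a check of pairing, each array's deviations from its group mean were correlated with those of the other surfaces over all genes. Collagen I and plastic arrays that share a letter gave r = 0.196 (A), 0.234 (P) and 0.269 (Z). The reported fits nevertheless held no pairing, and the letter entered only as a block in the alternatives. The collagen I array A correlated more with the plastic array S (r = 0.243). For Matrigel the same-letter values were -0.131 and 0.406, from arrays whose deviations mirror each other.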

Additional observations from a re-analysis of the deposited data

How the results depend on the processing

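Of the calls against plastic, those of Cebpa, Fabp4, Cd36, Acsl1 and Angptl4 on Matrigel and of Cebpb on collagen I held in every alternative that tested them. Leaving out 1 array gave 759 to 1461 called genes for Matrigel against plastic, lowest without the Matrigel array A, with 6 to 8 of the 10 genes called, lowest without the Matrigel array S. It gave 552 to 870 genes and 1 to 2 of the 10 for collagen I against plastic, lowest for genes without the plastic array A and for the 10 without the collagen I array P. For Matrigel against collagen I it gave 68 to 352 genes and 1 to 5 of the 10, both lowest without the collagen I array P.

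Matrigel against collagen I depended most on the model. With only those 5 arrays in the limma fit 0 genes and 0 of the 10 were called, with 2094 genes and 7 of the 10 at an unadjusted p under 0.05. Array weights gave 257 genes. The letter as a fixed replicate block, with 3 residual degrees of freedom, gave 66 genes and 2 of the 10. Against plastic that block gave 1504 genes and 7 of the 10 for Matrigel and 1072 genes and 3 of the 10 for collagen I. It called Cd36 on collagen I, lost Cebpb on Matrigel, and otherwise changed no call of the 10 genes against plastic.

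Signs turned only where no call was made in the reported values. Under the block Lpl was -0.24 for Matrigel minus plastic and Fabp4 0.072 for collagen I minus plastic. With 1 array left out, Matrigel minus plastic ran from -0.35 to 0.89 for Lpl and from -0.062 to 0.45 for Fabp5, and Matrigel minus collagen I from -0.11 to 0.40 for Fabp5. Collagen I minus plastic ran from -0.21 to 0.31 for Pparg, from -0.0063 to 0.090 for Fabp5 and from -0.0040 to 0.53 for Cd36. The filter on dim genes removed Fabp4 and Cd36. The causes were not tested.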
